A study of Mus musculus with 8 samples.

Results

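The genes described here are 39 mouse genes of the podosome and the actin ring, listed by symbol for their known roles in these structures. The list was made with earlier results of these data known, so its counts beside the shares of all genes are descriptions. They comprise 3 signalling proteins (Src, Ptk2b and Cbl), 5 integrin-linked adaptors, 6 proteins of actin crosslinking and turnover, 10 proteins of branched actin nucleation, 3 unconventional myosins, 5 small GTPases, 4 regulators of these GTPases, and 3 scaffold and membrane linker proteins. All 39 were among the 24421 genes of the deposited table. All 39 also passed the filter of at least 1 CPM (the reads of a gene scaled by the reads of the library counted in genes) in at least 2 of the 8 libraries, which 12194 genes passed. The lowest value of any of the 39 in any library was 2.70 CPM, for Src, so that none passed the filter through 1 group alone.

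Podosomes are small adhesive contacts of macrophages and osteoclasts, each with a core of branched actin filaments and a surrounding ring of integrins and adaptor proteins. In osteoclasts, the bone-resorbing cells of the macrophage lineage, podosomes gather into a belt that becomes the actin ring or sealing zone, which closes off the patch of bone being resorbed. Signals from integrins pass through the kinases Src and Pyk2 (the product of Ptk2b) and the adaptor Cbl to small GTPases such as Rac and Cdc42. These switch on the Arp2/3 complex, the nucleator of branched filaments. Mice that lack Src have osteoclasts without a functional actin ring.

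Total RNA was sequenced after poly-A selection from bone marrow macrophages in 4 groups of 2 libraries, 8 in all. The wild-type (WT) cells and the Rbpj knockout (KO) cells were each sampled untreated at day 0 and at day 2 of exposure to 40 ng/ml TNF. TNF is an inflammatory cytokine that can drive macrophages towards the osteoclast state, and Rbpj encodes RBP-J, through which Notch signals reach their target genes. The knockout genotype is Rbpj f/f;LysMCre, in which Cre recombinase driven by the lysozyme M promoter removes floxed Rbpj in cells of the myeloid lineage, while the labels call the controls WT and list no floxed or Cre allele for them. No age or sex of the mice and no culture cytokine other than TNF is given in the labels. The design has no culture of the same length without TNF, and TNF and the 2 days in culture cannot be told apart. The series describes 2 independent experiments, but no label ties a replicate number to an animal or an experiment, and the p-values measure the spread between these libraries only.

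The libraries held 9855859 to 35653203 reads counted in genes, the fewest in KO with TNF replicate 1. Rbpj itself stood at 178 to 226 CPM in the 4 wild-type libraries and at 21.4 to 38.9 CPM in the 4 knockout libraries. The 11 macrophage markers examined were all detected and summed to 5747 to 10940 CPM, with Csf1r and Cd68 high in every library. Lyz2, which shares reads with its near-identical copy Lyz1, stood at only 7.25 to 102 CPM. Erythroid markers summed to at most 0.51 CPM in any library. The 10 osteoclast markers summed to 61.2 to 161 CPM in the 4 day 0 libraries, 4840 to 6324 CPM in wild type with TNF, and 18058 to 44815 CPM in the knockout with TNF. The 13 neutrophil markers in the table summed to 196 to 1124 CPM at day 0 and 66.1 to 233 CPM with TNF. In bulk RNA, more cells of a type and more RNA per cell cannot be told apart, and whether the make-up of the cultures sets any difference below was not tested. The replicates also differed in every group: 12 type I interferon genes summed to 122 to 222 CPM in the 4 first replicates and 769 to 4384 CPM in the 4 second replicates, and 14 stromal markers to 183 to 277 CPM against 10.1 to 63.1 CPM.

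Promoter sequences were available for 32 of the 39 genes, in 41 windows of 250 bases before an annotated transcript start. Shown first are the windows of Src, Myo10, Myo1e, Rhou and Vcl, which rose with TNF in the knockout, and of Arhgap17, which fell; these 6 genes are the ones called there without the replicate number in the model for which the table holds a promoter. All are from RefSeq on GRCm38.p6, written 5′ to 3′ on the strand of the gene: Src at chr2:157424043-157424292, Myo10 at chr15:25622300-25622549 and at chr15:25752956-25753205, Myo1e at chr9:70207100-70207349, Rhou at chr8:123653679-123653928 and Vcl at chr14:20929148-20929397, all on the plus strand, and Arhgap17 at chr7:123369916-123370165 on the minus strand. The Src window and the downstream Myo10 window lie inside the GENCODE span of the gene, at an internal transcript start, the upstream Myo10 window ends inside that span, and the others lie upstream of it. Capitals mark matches, on either strand, to 6 motifs: AP-1 (TGANTCA), NFAT (TGGAAA), RBP-J (TGGGAA), PU.1 (GAGGAA), NF-kB and the CArG box of serum response factor.
Src: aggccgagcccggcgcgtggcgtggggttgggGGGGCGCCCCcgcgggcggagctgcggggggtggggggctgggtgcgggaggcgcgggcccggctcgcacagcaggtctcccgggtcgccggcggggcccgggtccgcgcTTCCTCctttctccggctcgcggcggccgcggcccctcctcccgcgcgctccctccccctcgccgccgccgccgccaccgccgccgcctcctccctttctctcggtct
Myo10, upstream start: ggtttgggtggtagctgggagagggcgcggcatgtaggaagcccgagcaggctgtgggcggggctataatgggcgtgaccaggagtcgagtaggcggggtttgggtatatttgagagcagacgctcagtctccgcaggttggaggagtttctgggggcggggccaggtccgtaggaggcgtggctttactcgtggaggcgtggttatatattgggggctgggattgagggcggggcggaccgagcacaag
Myo10, downstream start: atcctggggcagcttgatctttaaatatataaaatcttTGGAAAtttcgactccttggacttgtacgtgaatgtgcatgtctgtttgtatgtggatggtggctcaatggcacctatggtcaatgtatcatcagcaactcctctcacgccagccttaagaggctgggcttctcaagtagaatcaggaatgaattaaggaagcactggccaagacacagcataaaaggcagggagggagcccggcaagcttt
Myo1e: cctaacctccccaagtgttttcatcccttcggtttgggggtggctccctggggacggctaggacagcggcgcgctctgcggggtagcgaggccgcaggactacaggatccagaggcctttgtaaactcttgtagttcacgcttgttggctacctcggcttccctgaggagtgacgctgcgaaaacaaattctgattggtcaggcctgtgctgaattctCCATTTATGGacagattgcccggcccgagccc
Rhou: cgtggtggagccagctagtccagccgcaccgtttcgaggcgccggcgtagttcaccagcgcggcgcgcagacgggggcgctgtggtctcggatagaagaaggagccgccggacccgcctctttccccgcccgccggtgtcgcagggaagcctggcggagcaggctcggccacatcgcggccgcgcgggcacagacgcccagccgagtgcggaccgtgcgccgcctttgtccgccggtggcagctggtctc
Vcl: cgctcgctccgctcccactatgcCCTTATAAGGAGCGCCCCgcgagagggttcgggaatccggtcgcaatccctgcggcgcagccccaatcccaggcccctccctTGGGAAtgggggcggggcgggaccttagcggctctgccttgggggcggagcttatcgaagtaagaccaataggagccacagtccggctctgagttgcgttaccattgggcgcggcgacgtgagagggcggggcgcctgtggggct
Arhgap17: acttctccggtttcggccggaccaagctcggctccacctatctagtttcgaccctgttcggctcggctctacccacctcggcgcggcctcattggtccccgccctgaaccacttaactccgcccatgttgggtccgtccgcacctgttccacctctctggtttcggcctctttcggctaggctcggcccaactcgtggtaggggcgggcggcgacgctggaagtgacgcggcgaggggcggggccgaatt
The Src window, of 82.8% G + C, held an NF-kB match 218 bases before the start and a PU.1 match 108 bases before it. The Vcl window held a CArG box 227 bases before the start, an NF-kB match that overlaps it at 219 bases, and an RBP-J match at 145 bases. Myo1e held a CArG box 32 bases before its start, and the downstream Myo10 start an NFAT match at 212 bases. The windows of Rhou and Arhgap17 and the upstream Myo10 start held none of these letters. A match is a description of the sequence and not evidence of binding. Among all 32851 windows of this length, 6.75% held the AP-1 letters, 18.6% NFAT, 21.6% RBP-J, 23.3% PU.1, 7.25% NF-kB and 1.47% a CArG box. Of the 41 windows of these genes, 4 held AP-1, 4 NFAT, 7 RBP-J, 7 PU.1, 4 NF-kB and 3 a CArG box.

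**Figure D1:**
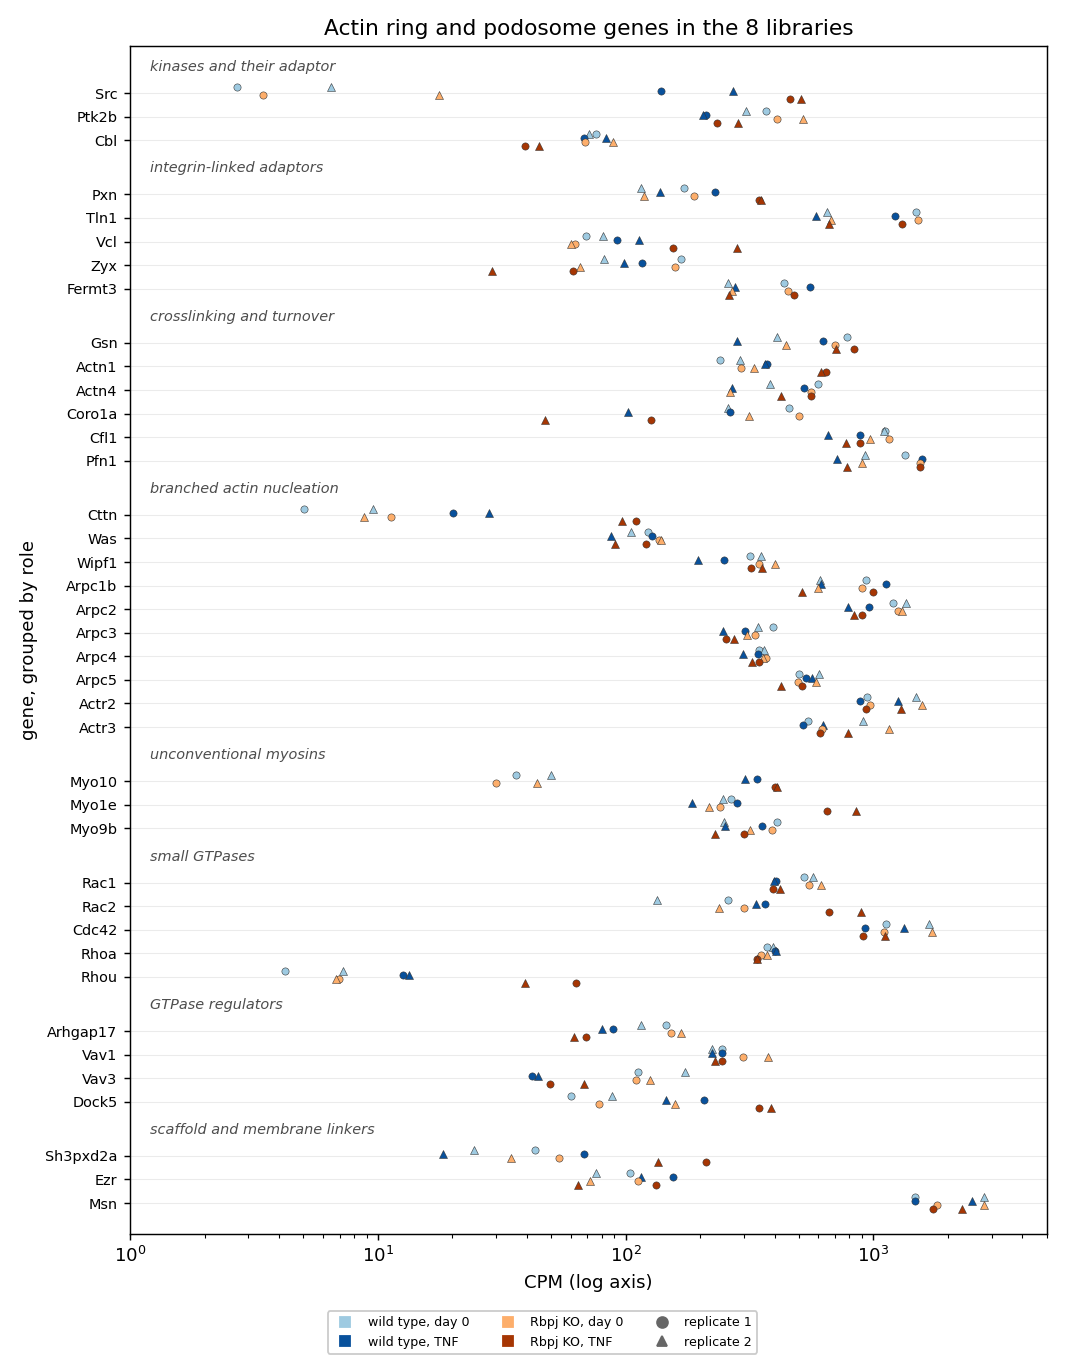
CPM on a log axis of the 39 genes in the 8 libraries, with 1 row for each gene, genes grouped by role, colour for the group, circles for replicate 1 and triangles for replicate 2. Src runs from 2.70 to 509 CPM over the libraries, while Rhoa stays between 339 and 403 CPM.

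Most of the 39 genes were expressed at every point, and a minority moved with TNF. Differences are given on log2(CPM + 0.5), with the standard error of limma's model, and p-values were adjusted over all 12194 genes by Benjamini-Hochberg. A gene was called at an adjusted p under 0.05. Because replicates of the same number deviated together across the groups, a second model with the replicate number as a term, the replicate block, is given where it changes a call. Library values are given with replicate 1 first. In all, 7 genes were called in some comparison without the block and 17 in either model, and 22 were called in none.

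In wild-type macrophages, 2 days with TNF raised Src 41.2-fold and Myo10 7.48-fold, and no other of the 39 genes was called without the block (background by limma 1.18% of all genes, 0.812% higher and 0.369% lower). With the block, Cttn was also called higher, and Vav3 and Coro1a lower, against a background of 10.3%, 5.54% higher and 4.71% lower. In 10 genes both TNF libraries lay above both day 0 libraries and in 9 genes both lay below, against 14.8% and 22.6% of all genes. The median difference of the 39 genes was -0.09 on the log2 scale, and that of all genes tested was -0.12. The calls of Src and Myo10 without the block were lost when any 1 of the 4 wild-type libraries was left out (adjusted p up to 0.209 for Src and 0.134 for Myo10), and that of Src also without either knockout library with TNF. With the block, the calls of Src, Myo10 and Vav3 held in all 8 leave-outs, the call of Cttn was lost without WT day 0 replicate 1 or either WT library with TNF (adjusted p up to 0.183), and that of Coro1a without any 1 of the 4 wild-type libraries (up to 0.247).

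In the knockout, 6 of the 39 genes rose with TNF without the block: Src 57.5-fold, Myo10 11-fold, Cttn 9.89-fold, Rhou 6.82-fold, Vcl 3.41-fold and Myo1e 3.25-fold. Only Arhgap17 was called lower, at 0.412 of its day 0 level. The background was 5.1% of all genes, 3.09% higher and 2.01% lower. With the block 11 genes were higher and 6 lower, against 12.2% and 13.7% of all genes, 25.9% together: Pxn, Actn1, Rac2, Dock5 and Sh3pxd2a joined the higher genes, and Coro1a, Zyx, Vav3, Cbl and Ptk2b the lower ones. Libraries did not overlap in 12 genes that were higher and 15 that were lower, against 20.4% and 25.2% of all genes, and the median difference was -0.13 beside -0.10 for all genes. Without the block, the call of Myo10 alone held in all 8 leave-outs (adjusted p up to 0.0465). Src was lost without either knockout library with TNF (up to 0.0935), Cttn without either of these or KO day 0 replicate 2 (up to 0.0733), Rhou without any 1 of the knockout libraries (up to 0.103), Myo1e without any 1 of the knockout or WT day 0 libraries (up to 0.173), Vcl without any 1 library other than KO with TNF replicate 1 (up to 0.176), and Arhgap17 without any 1 of the 8 (up to 0.199). With the block those 7 calls and that of Coro1a held in all 8 leave-outs, with adjusted p up to 0.0476.

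**Figure D2:**
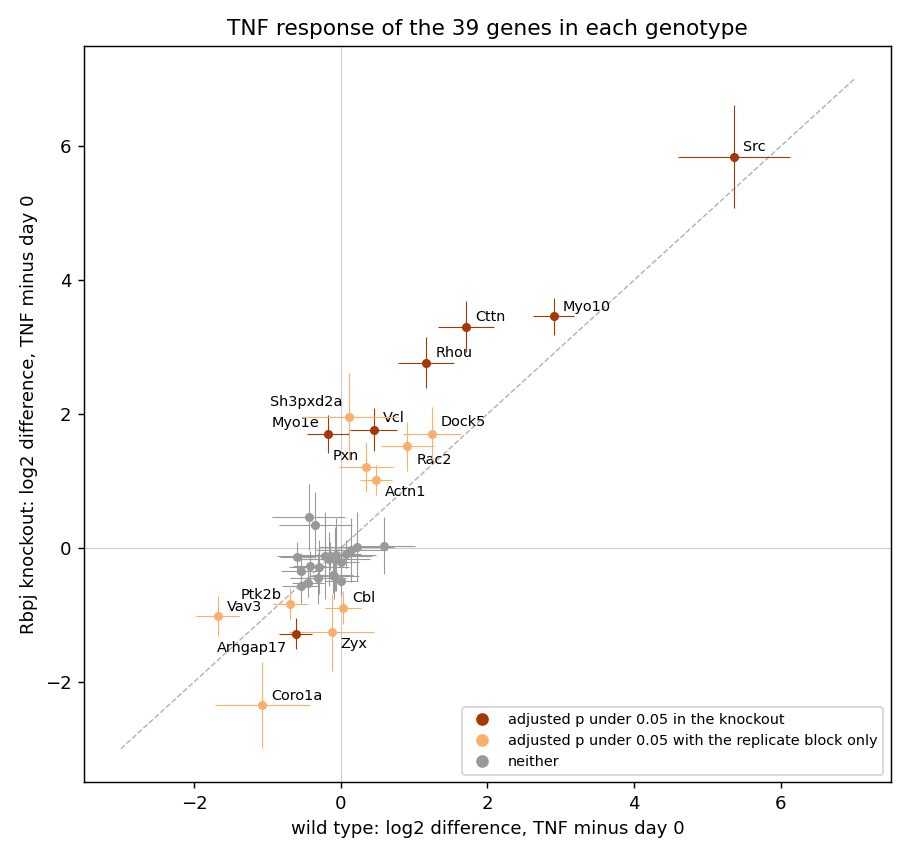
Log2 difference between TNF and day 0 for each of the 39 genes, wild type on the x axis and Rbpj knockout on the y axis, with bars of 1 standard error the dashed line of equal response, and colour for the calls (dark red in the knockout without the block, orange with the block only, grey neither). Src and Myo10 lie far to the upper right, and Myo1e and Sh3pxd2a lie near 0 in wild type but at 1.70 and 1.96 in the knockout.

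The proximal signalling genes split, with Src higher and the other 2 not. Src (chr2:157418444-157471862; all gene positions are from GENCODE on GRCm38), the tyrosine kinase that organizes the sealing zone, had 2.70 and 6.49 CPM in untreated wild type, 139 and 272 with TNF, 3.43 and 17.6 in the untreated knockout, and 462 and 509 with TNF. All 4 libraries with TNF lay far above all 4 at day 0, and both knockout libraries with TNF lay above both wild-type ones. Src rose by 5.37 ± 0.76 in wild type (SE, n = 2 against 2; limma adjusted p = 0.0376, with the block 0.00203) and by 5.85 ± 0.76 in the knockout (limma adjusted p = 0.0129, with the block 0.000875). Its day 0 levels rested on 74 and 175 reads in wild type and 96 and 397 in the knockout. These replicates differed by 1.13 in wild type and 2.21 in the knockout on the log2 scale, so the fold is less precise than the direction.

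Ptk2b (chr14:66153257-66281052), which encodes the focal adhesion family kinase Pyk2, had 367 and 307 CPM in untreated wild type and 211 and 206 with TNF, and at 408 and 521 in the untreated knockout and 234 and 283 with TNF. The TNF libraries lay below the day 0 libraries in both genotypes. The difference was -0.69 ± 0.24 in wild type (limma adjusted p = 0.31, with the block 0.074) and -0.84 ± 0.24 in the knockout (limma adjusted p = 0.113, with the block 0.0243), and the blocked knockout call was lost without any 1 of the 4 knockout libraries (up to 0.191).

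Cbl (chr9:44142976-44234049), a ubiquitin ligase and adaptor downstream of Src, had 75.8 and 71.4 CPM in untreated wild type, 67.7 and 83.3 with TNF, 68.7 and 88.6 in the untreated knockout, and 39.1 and 44.7 with TNF. The wild-type libraries overlapped, and both knockout libraries with TNF were the lowest of the 8. The difference was 0.03 ± 0.25 in wild type and -0.89 ± 0.25 in the knockout (limma adjusted p = 0.0991, with the block 0.0116, lost without the second replicate of KO day 0 or of KO with TNF, up to 0.114).

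Among the integrin-linked adaptors, vinculin and paxillin were higher in the knockout with TNF, zyxin was lower, and talin and kindlin-3 were not called. Vcl (chr14:20929398-21033676), which encodes vinculin, the protein that ties talin to actin, had 69.2 and 80.8 CPM in untreated wild type and 92.2 and 114 with TNF, and at 62.4 and 59.9 in the untreated knockout and 155 and 282 with TNF. Both genotypes had TNF libraries above their day 0 libraries, and the knockout pair with TNF was the highest and differed within itself by 0.86 on the log2 scale. Vcl rose by 1.77 ± 0.32 in the knockout (limma adjusted p = 0.0331, with the block 0.00358), and the wild-type difference was 0.45 ± 0.32 (limma adjusted p = 0.735, with the block 0.249).

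Pxn (chr5:115506676-115555987), which encodes the adhesion scaffold paxillin, had 171 and 115 CPM in untreated wild type, 229 and 138 with TNF, 189 and 119 in the untreated knockout, and 345 and 351 with TNF. Each pair except the last had the first replicate higher, and the knockout libraries with TNF stood above the other 6. The knockout difference was 1.21 ± 0.37 (limma adjusted p = 0.126, with the block 0.0101, and 0.0914 in the blocked fit without KO day 0 replicate 2). The wild-type difference was 0.34 ± 0.37, with overlapping libraries.

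Zyx (chr6:42349630-42360213), which encodes zyxin, a LIM protein of focal adhesions and stress fibres, had 167 and 81.9 CPM in untreated wild type, 117 and 98.5 with TNF, 158 and 65.2 in the untreated knockout, and 61.5 and 28.9 with TNF. The knockout libraries with TNF were the lowest of the 8, and the wild-type libraries overlapped. The knockout difference was -1.26 ± 0.58 (limma adjusted p = 0.307, with the block 0.0157, lost without either KO day 0 library or KO with TNF replicate 2, up to 0.104).

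Tln1, encoding the integrin activator talin, and Fermt3, encoding kindlin-3, its partner in integrin activation, were not called in any comparison. Their TNF differences were -0.22 ± 0.65 and 0.22 ± 0.51 in wild type and -0.12 ± 0.65 and 0.02 ± 0.51 in the knockout. Tln1 stood at 1218 to 1514 CPM in the 4 first replicates and 587 to 674 CPM in the 4 second replicates, a gap larger than any between its groups.

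Of the 6 crosslinking and turnover genes, Actn1 and Coro1a were called and 4 were not. Actn1 (chr12:80167547-80260371), encoding the crosslinker alpha-actinin-1, had 240 and 290 CPM in untreated wild type, 371 and 365 with TNF, 291 and 331 in the untreated knockout, and 646 and 615 with TNF. The 4 pairs of libraries did not overlap in any comparison, and the knockout with TNF was highest. The difference was 0.48 ± 0.22 in wild type (limma adjusted p = 0.482, with the block 0.112) and 1.02 ± 0.22 in the knockout (limma adjusted p = 0.0539, with the block 0.00741, and up to 0.0603 in the blocked fit without either KO day 0 library).

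Coro1a (chr7:126699773-126707787), encoding the leukocyte actin-binding protein coronin-1A, had 457 and 260 CPM in untreated wild type, 264 and 102 with TNF, 499 and 315 in the untreated knockout, and 127 and 47.3 with TNF. In every pair the second replicate was lower, wild-type TNF replicate 1 lay above day 0 replicate 2, and the knockout libraries did not overlap. The difference was -1.07 ± 0.64 in wild type (limma adjusted p = 0.639, with the block 0.0358) and -2.35 ± 0.64 in the knockout (limma adjusted p = 0.0974, with the block 0.00173). Neutrophils also express Coro1a. The 13 neutrophil markers summed to 66.1 and 78.9 CPM in the knockout with TNF against 303 and 1124 CPM before it, and their part in this difference was not tested.

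Actn4 (alpha-actinin-4), Gsn (the severing and capping protein gelsolin), Cfl1 (the severing protein cofilin) and Pfn1 (the monomer-binding protein profilin) were called in no comparison. Gsn had 782 and 410 CPM in untreated wild type, 625 and 280 with TNF, 702 and 444 in the untreated knockout, and 835 and 709 with TNF. Both knockout libraries of Gsn lay above both wild-type libraries after TNF, with a difference of 0.88 ± 0.50 (limma adjusted p = 0.638, with the block 0.0755).

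Cortactin stood apart from the other 9 genes of branched actin nucleation. Cttn (chr7:144435733-144471009), encoding cortactin, the Src substrate that stabilizes Arp2/3 branches, had 5.03 and 9.53 CPM in untreated wild type, 20.1 and 28.1 with TNF, 11.3 and 8.80 in the untreated knockout, and 110 and 96.5 with TNF. The TNF libraries lay above the day 0 libraries in both genotypes, and the knockout pair with TNF lay well above both wild-type libraries with TNF. Cttn rose by 3.31 ± 0.38 in the knockout (limma adjusted p = 0.00912, with the block 0.00166), and the wild-type difference was 1.70 ± 0.38 (limma adjusted p = 0.111, with the block 0.0239).

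The 7 subunits of the Arp2/3 complex were not called in any of the 5 comparisons in either limma model. Their TNF differences ran from -0.55 (Arpc2) to 0.14 (Arpc1b) in wild type and from -0.57 (Arpc2) to -0.03 (Arpc1b) in the knockout, where Arpc1b turned to 0.05 under rescaling by TMM or by median ratios. The smallest adjusted p with the block was 0.0825 (Arpc2 in the knockout), and the 95% intervals of the blocked model for the knockout minus wild type with TNF lay between -0.70 and 0.80 for all 7. Was, encoding the nucleation-promoting factor WASP, stood at 87.0 to 139 CPM and Wipf1, encoding its stabilizing partner WIP, at 195 to 399 CPM over the 8 libraries, and neither was called.

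The 3 unconventional myosins behaved in 3 ways. Myo10 (chr15:25622525-25813673), encoding the filopodial myosin X, had 36.0 and 49.8 CPM in untreated wild type, 338 and 303 with TNF, 30.1 and 43.7 in the untreated knockout, and 400 and 408 with TNF. All 4 TNF libraries lay far above all 4 day 0 libraries. The second minus the first replicate was 0.46 in wild type and 0.53 in the knockout at day 0, and -0.16 and 0.03 with TNF, on the log2 scale. Myo10 rose by 2.90 ± 0.28 in wild type (limma adjusted p = 0.0151, with the block 0.00147) and by 3.46 ± 0.28 in the knockout (limma adjusted p = 0.00484, with the block 0.000589).

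Myo1e (chr9:70207350-70399766), encoding a membrane-binding class I myosin of podosomes, had 266 and 248 CPM in untreated wild type, 282 and 185 with TNF, 241 and 217 in the untreated knockout, and 648 and 854 with TNF. The 6 libraries outside the knockout with TNF lay between 185 and 282 CPM, and the wild-type TNF and day 0 libraries overlapped. Myo1e rose by 1.70 ± 0.29 in the knockout (limma adjusted p = 0.0265, with the block 0.00511), and the wild-type difference was -0.17 ± 0.29 (limma adjusted p = 0.97, with the block 0.691; 95% interval with the block -0.75 to 0.42). Myo9b, encoding a class IX myosin, stood at 230 to 407 CPM and was not called.

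Among the small GTPases, Rhou was called in the knockout with TNF in both models, and Rac2 there only with the block. Rac1, Cdc42 and Rhoa were not called. Rhou (chr8:123653929-123663884), encoding the atypical GTPase Wrch-1, had 4.23 and 7.20 CPM in untreated wild type, 12.6 and 13.4 with TNF, 6.97 and 6.75 in the untreated knockout, and 62.9 and 39.2 with TNF. The TNF libraries lay above the day 0 libraries in both genotypes, from 116 to 744 reads a library. Rhou rose by 2.77 ± 0.38 in the knockout (limma adjusted p = 0.0154, with the block 0.00272), and the wild-type difference was 1.16 ± 0.38 (limma adjusted p = 0.272, with the block 0.0723).

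Rac2 (chr15:78559167-78572783), the haematopoietic Rac, had 260 and 134 CPM in untreated wild type, 366 and 337 with TNF, 301 and 238 in the untreated knockout, and 661 and 890 with TNF. Its TNF libraries lay above the day 0 libraries in both genotypes. The difference was 0.91 ± 0.36 in wild type (limma adjusted p = 0.384, with the block 0.113) and 1.52 ± 0.36 in the knockout (limma adjusted p = 0.0698, with the block 0.0161, lost without either KO day 0 library or KO with TNF replicate 2, up to 0.11).

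Rac1, the ubiquitous Rac, had 523 and 570 CPM in untreated wild type, 405 and 397 with TNF, 549 and 616 in the untreated knockout, and 392 and 421 with TNF. The TNF libraries lay below the day 0 libraries in both genotypes, with differences of -0.45 ± 0.22 (limma adjusted p = 0.518, with the block 0.117) and -0.52 ± 0.22 (limma adjusted p = 0.261, with the block 0.0517). Rhoa, which drives contractility, ranged over 339 to 403 CPM. Cdc42, an activator of WASP, stood at 910 to 1724 CPM, with the second replicate higher in all 4 groups.

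The GTPase regulators went both ways. Arhgap17 (chr7:123279218-123369915), encoding a GTPase-activating protein for Rac and Cdc42, had 145 and 115 CPM in untreated wild type, 88.7 and 80.1 with TNF, 153 and 167 in the untreated knockout, and 69.5 and 61.8 with TNF. The TNF libraries lay below the day 0 libraries in both genotypes, and the knockout pair with TNF was the lowest. Arhgap17 fell by 1.28 ± 0.23 in the knockout (limma adjusted p = 0.0303, with the block 0.00335), and the wild-type difference was -0.61 ± 0.23 (limma adjusted p = 0.334, with the block 0.0618).

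Vav3 (chr3:109340653-109685698), encoding an exchange factor for Rac that acts downstream of the integrin in osteoclasts, had 112 and 173 CPM in untreated wild type, 41.9 and 44.5 with TNF, 110 and 126 in the untreated knockout, and 49.5 and 67.7 with TNF. All 4 TNF libraries lay below all 4 day 0 libraries. The difference was -1.68 ± 0.29 in wild type (limma adjusted p = 0.0598, with the block 0.00417) and -1.02 ± 0.29 in the knockout (limma adjusted p = 0.111, with the block 0.00956, and up to 0.0726 without either KO day 0 library).

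Dock5 (chr14:67752135-67933442), encoding another exchange factor for Rac used by osteoclasts, had 60.4 and 88.0 CPM in untreated wild type, 208 and 145 with TNF, 78.4 and 158 in the untreated knockout, and 344 and 387 with TNF. The TNF libraries lay above the day 0 libraries within each genotype. The difference was 1.24 ± 0.40 in wild type (limma adjusted p = 0.256, with the block 0.0675) and 1.71 ± 0.40 in the knockout (limma adjusted p = 0.0646, with the block 0.0144, lost without KO day 0 replicate 1 or either KO library with TNF, up to 0.0797). Vav1, the haematopoietic Vav, was not called. It had 245 and 223 CPM in untreated wild type, 246 and 224 with TNF, 297 and 377 in the untreated knockout, and 245 and 229 with TNF.

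Of the scaffold and membrane linkers, Sh3pxd2a alone was called. Sh3pxd2a (chr19:47260174-47464401), encoding the Src substrate and podosome scaffold Tks5, had 43.2 and 24.4 CPM in untreated wild type, 67.7 and 18.3 with TNF, 53.6 and 34.3 in the untreated knockout, and 210 and 135 with TNF. The second replicate was lower in every pair, the wild-type TNF libraries lay on both sides of the day 0 ones, and the knockout libraries with TNF stood above the other 6. The knockout difference was 1.96 ± 0.64 (limma adjusted p = 0.153, with the block 0.00742, and up to 0.0531 without KO day 0 replicate 1 or KO with TNF replicate 2), and the wild-type difference was 0.12 ± 0.64. Ezr (ezrin) and Msn (moesin), which link membrane proteins to actin, were not called. Ezr stood at 64.0 to 155 CPM and Msn at 1471 to 2810 CPM over the 8 libraries.

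**Figure D3:**
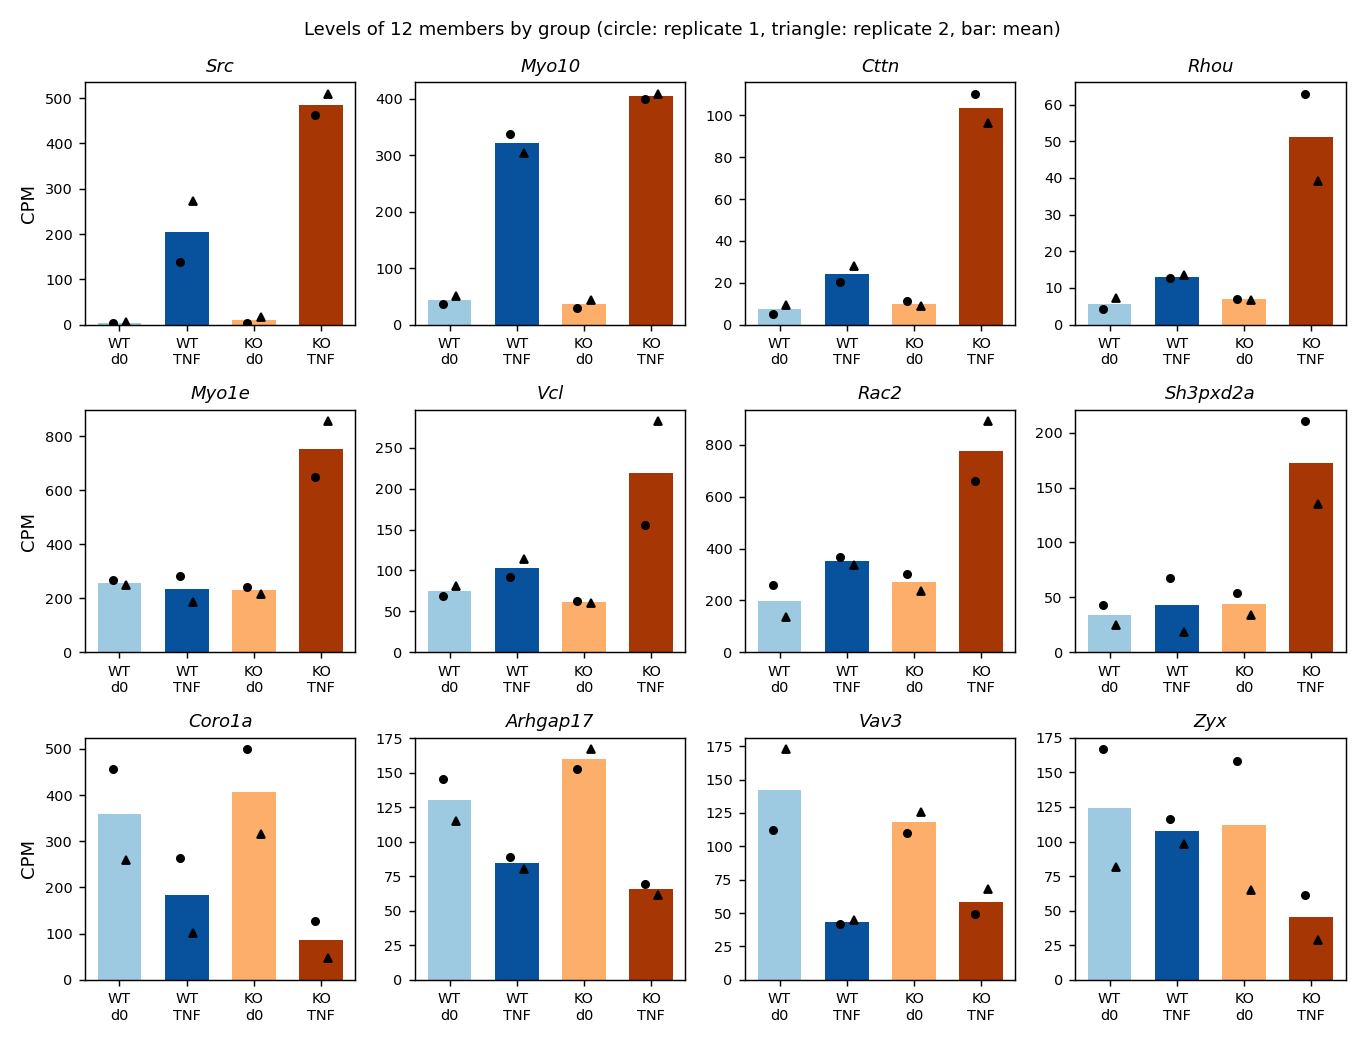
CPM of 12 of the genes in the 4 groups, with a bar for the mean of 2 libraries, a circle for replicate 1 and a triangle for replicate 2, each panel with its own axis from 0. Src and Myo10 are up in both genotypes with TNF, Myo1e and Sh3pxd2a stand out in the knockout with TNF, and Vav3 is low with TNF in both genotypes.

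The knockout with TNF was the extreme group for many of these genes. In 11 of the 39 (Src, Pxn, Vcl, Cttn, Actn1, Myo10, Myo1e, Rac2, Rhou, Dock5 and Sh3pxd2a) both of its libraries lay above the other 6, against 11.1% of all genes, and in 4 (Cbl, Zyx, Rhoa and Arhgap17) both lay below them, against 9.13%. Wild type with TNF was lowest in Ptk2b, Wipf1 and Vav3 (3.72% of all genes) and highest in Rhoa (4.1%), and the untreated knockout was highest in Ptk2b, Was, Arhgap17 and Vav1 (3.43%) and lowest in Vcl (1.81%). Untreated wild type was highest in Arpc3 (3.6%) and lowest in Actn1 (2.33%). Osteoclast markers were highest in the same group, at 18058 and 44815 CPM, and their part in these levels was not tested.

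Before TNF, none of the 39 genes was called between knockout and wild type at day 0 by limma without or with the block, by edgeR or by DESeq2, and the number at an unadjusted p under 0.05 was 0 without the block and 1 with it. Of all genes, 0% were called without the block and 0.0082% with it. Without the block, Rbpj itself was thus not called. It stood at 215 and 216 CPM in untreated wild type and 38.9 and 31.8 CPM in the untreated knockout. The absence of a call at day 0 therefore does not show equal levels. The differences ran from -0.32 ± 0.50 (Actn4) to 0.84 ± 0.76 (Src), and libraries did not overlap in 5 genes that were higher (Ptk2b, Was, Actn1, Arhgap17 and Vav1) and 4 that were lower (Vcl, Arpc3, Myo1e and Rhoa), against 9.86% and 8.66% of all genes. For Src the 95% interval of the blocked difference ran from -0.20 to 1.88. Actn4 stood at 597 and 384 CPM in wild type and 559 and 263 in the untreated knockout, and at 526 and 269 and 559 and 424 with TNF.

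After TNF, 15 of the 39 genes had both knockout libraries above both wild-type libraries and 5 had both below, against 18.8% and 16.1% of all genes. This comparison and the TNF comparisons use the same TNF libraries and are not independent of each other. Without the block no gene of the 39 was called by limma (11 at an unadjusted p under 0.05, background 0.0082% higher) or by edgeR, and 4 were called higher by DESeq2, which called 4.86% of all genes. With the block 7 were higher, against 5.53% of all genes, and 3 lower, against 3.75% (9.28% together): Sh3pxd2a by 2.24 ± 0.31 (limma adjusted p = 0.0202), Cttn by 2.09 ± 0.32 (0.022), Rhou by 1.89 ± 0.33 (0.0269), Myo1e by 1.70 ± 0.24 (0.0203), Vcl by 1.03 ± 0.23 (0.0431), Pxn by 0.96 ± 0.21 (0.0431) and Actn1 by 0.78 ± 0.16 (0.0391) were higher. Zyx at -1.33 ± 0.25 (limma adjusted p = 0.0318), Coro1a at -1.07 ± 0.23 (0.0397, with overlapping libraries) and Cbl at -0.84 ± 0.16 (0.0337) were lower. None of these 10 calls held in all 8 leave-outs: 0 were made without WT with TNF replicate 2 and 0 without KO with TNF replicate 2, where 0% and 0.0664% of all genes were called, and 3 to 7 of the 39 genes were called without any 1 of the other 6 libraries, against 3.33% to 9.19% of all genes. The calls of Myo1e and Sh3pxd2a were lost only in those 2 leave-outs (adjusted p up to 0.164 and 0.14). The blocked test of edgeR called 5 higher and 2 lower, against 6.65% of all genes in both directions, and DESeq2's called 12 higher and 3 lower, against 19.0%.

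Src itself was not called in this comparison. Its difference was 1.32 with a standard error of 0.76 without the block and 0.43 with it (limma adjusted p = 0.646 and 0.11), although both knockout libraries were above both wild-type ones. Rac2 at 1.13 ± 0.36 and Dock5 at 1.07 ± 0.40 were not called either (limma adjusted p with the block 0.0726 and 0.0994). Myo10 differed by 0.34 ± 0.28, with a blocked 95% interval of -0.16 to 0.83. Rac1 differed by 0.02 ± 0.22 and Vav1 by 0.01 ± 0.23, and both turned slightly negative under each of 3 other scalings.

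**Figure D4:**
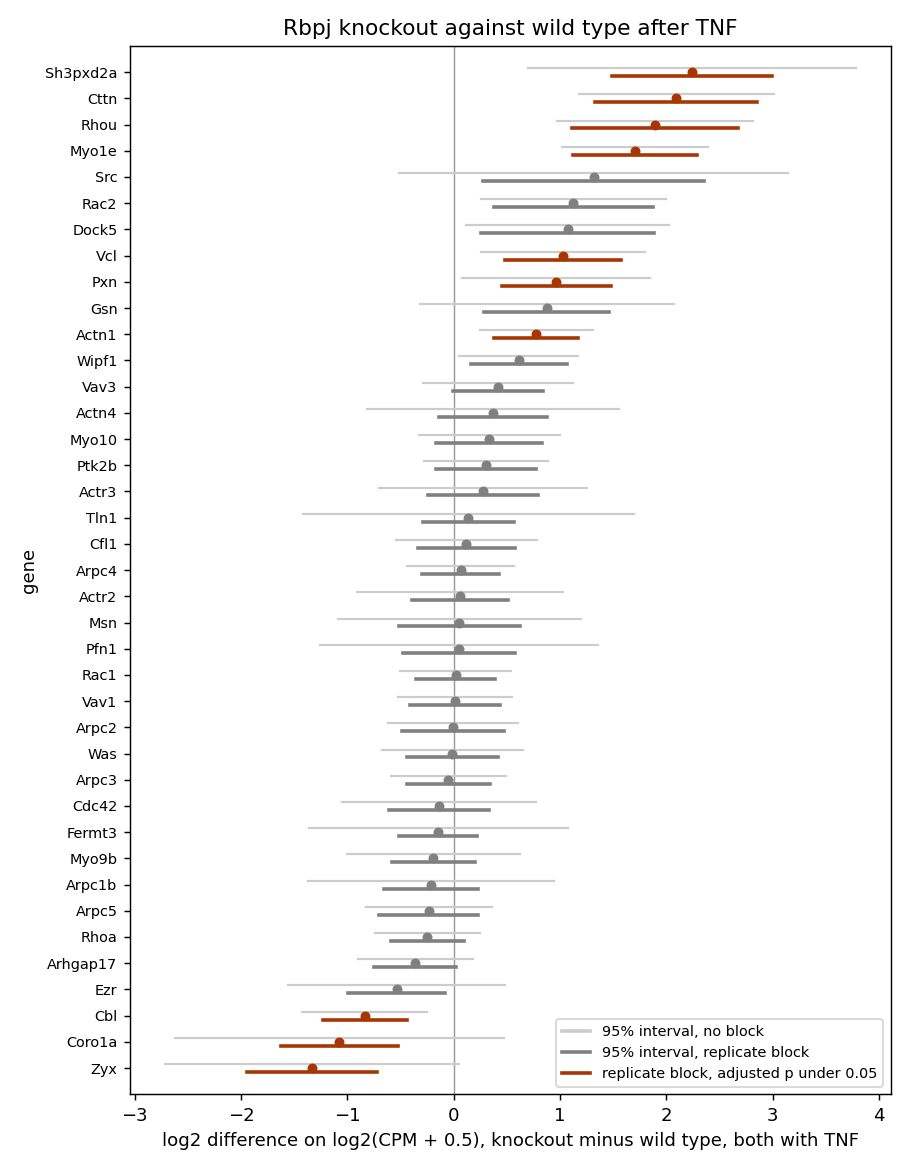
Log2 difference between Rbpj knockout and wild type, both with TNF, for the 39 genes in order of size, with 95% intervals from limma without the replicate block (pale) and with it (dark; red where the adjusted p is under 0.05). The intervals of Sh3pxd2a, Cttn, Rhou and Myo1e lie well above 0, and those of Rac1 and the Arp2/3 subunits span it.

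Whether the TNF response itself differed between genotypes was tested by the difference of the 2 responses. None of the 39 genes, and 0% of all genes, was called by limma without the block (5 of the 39 at an unadjusted p under 0.05) or with it (12), or by edgeR in either model. DESeq2 called 1 higher without the block (0.648% of all genes in both directions), and 5 higher and 2 lower with it (8.09%). The largest positive differences of response were Myo1e at 1.87 ± 0.41 (limma adjusted p = 0.655, with the block 0.106), Sh3pxd2a at 1.84 ± 0.91 (0.985, with the block 0.135), Rhou at 1.61 ± 0.54 and Cttn at 1.60 ± 0.54 (both 0.821, with the block 0.159 and 0.154). The most negative were Coro1a at -1.28 ± 0.91 (with the block 0.137) and Zyx at -1.13 ± 0.82 (with the block 0.184). So a gene called in the knockout and not in wild type, such as Rhou, is not shown by this test to respond differently. The wild-type and knockout responses share no library, and across the 39 genes they had a Pearson r of 0.88, with the same sign in 31 and the larger size in the knockout in 28. The median size of the 39 responses was 0.35 in wild type and 0.50 in the knockout, against 5.37 and 5.85 for Src. How far r rests on the largest responses was not tested. Across all genes, r was 0.72, with 71.9% of the same sign and 59.4% larger in the knockout; genes are not independent replicates.

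Per kilobase of exon, the scale on which levels of different genes can be compared, the 39 genes spanned a wide range. At day 0 in wild type the highest were Arpc2 at 628, Cdc42 at 471, Pfn1 at 471 and Cfl1 at 390 CPM per kb, and the lowest were Src at 1.05, Rhou at 1.50 and Cttn at 1.74 CPM per kb. Src moved from rank 39 to rank 22 in wild type with TNF and from 37 to 15 in the knockout, where it reached 111 CPM per kb. Rac2 moved from rank 17 to 6 in the knockout, at 250 CPM per kb, above Rac1 at 90.4, whereas in wild type at day 0 Rac1 stood at 122 and Rac2 at 63.5 CPM per kb. Coro1a went from rank 12 to 29 in the knockout. With this length, Arpc2, Pfn1 and Cdc42 held the first 3 ranks in all 4 groups.

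A wider set of 179 actin and adhesion genes that passed the filter, in 7 lists that leave out the 39, was read in the same fits. In wild type with TNF, 2 were called higher and 1 lower without the block (22 and 13 with it), and in the knockout 6 higher and 9 lower (30 and 42 with it). Of all genes, 0.812% were higher and 0.369% lower in wild type (5.54% and 4.71% with the block), and 3.09% and 2.01% in the knockout (12.2% and 13.7%). The median difference of the 179 was -0.10 in wild type and -0.19 in the knockout, beside -0.12 and -0.10 for all genes. Among 17 genes of matrix degradation and podosome scaffolds, Mmp9, encoding a matrix metalloproteinase that was also in the osteoclast marker list, rose by 8.12 ± 0.33 in wild type and 9.42 ± 0.33 in the knockout (limma adjusted p = 0.00128 and 0.000322). Map4k4 rose by 1.87 and Bin2 fell by 1.81 in the knockout. Among 22 turnover and capping genes, Scin, encoding the gelsolin relative scinderin, went from 0.109 and 0.853 CPM to 23.3 and 17.6 in wild type and from 1.04 and 3.20 to 220 and 264 in the knockout, a rise of 4.52 ± 0.57 and 6.66 ± 0.57 (limma adjusted p = 0.0255 and 0.00513), and Ssh2 fell by 2.54 in the knockout.

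The gene called lower in wild type was Rhoh. Rhoh, encoding an atypical haematopoietic GTPase, went from 16.9 and 18.6 CPM to 1.91 and 1.48 in wild type and from 30.0 and 41.3 to 2.44 and 1.27 in the knockout, so that it fell by 3.06 ± 0.39 in wild type (limma adjusted p = 0.0256) and fell by 3.97 ± 0.39 in the knockout (limma adjusted p = 0.00706). Among 24 integrins and adaptors, Bcar1, encoding the Src substrate p130Cas, rose by 4.10 and Itgb5 fell by 2.50 in the knockout, and of 24 kinases and phosphatases Pik3cb rose by 1.53. No call without the block fell among the 25 nucleation genes (with the block 5 higher and 2 lower in the knockout, 5 at an unadjusted p under 0.05 without it) or the 34 actins, crosslinkers and myosins (4 and 6, 8 at an unadjusted p under 0.05). Between knockout and wild type after TNF, limma called none of the 179 without the block (31 at an unadjusted p under 0.05), edgeR called none, DESeq2 called 10 higher and 5 lower (4.86% of all genes in both directions), and limma with the block called 15 higher and 11 lower (5.53% and 3.75% of all genes).

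The first and second replicates of these genes differed in a repeated way. The second minus the first replicate had the same sign in all 4 groups in 19 of the 39 genes, 12 lower and 7 higher in the second, against 59.2% of all genes. The mean over the 4 groups ran from -1.10 for Tln1, -1.07 for Coro1a and -0.98 for Sh3pxd2a to 0.58 for Actr2, 0.68 for Msn and 1.11 for Src. Across the 39 genes it had a Pearson r of -0.60 with the G + C content of the longest transcript, and across the 11731 of the 12194 genes with a transcript (96.2%) it was -0.53. Genes share their libraries, so these values are descriptions. Src lay apart, at 59.3% G + C and with the second replicate higher.

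**Figure D5:**
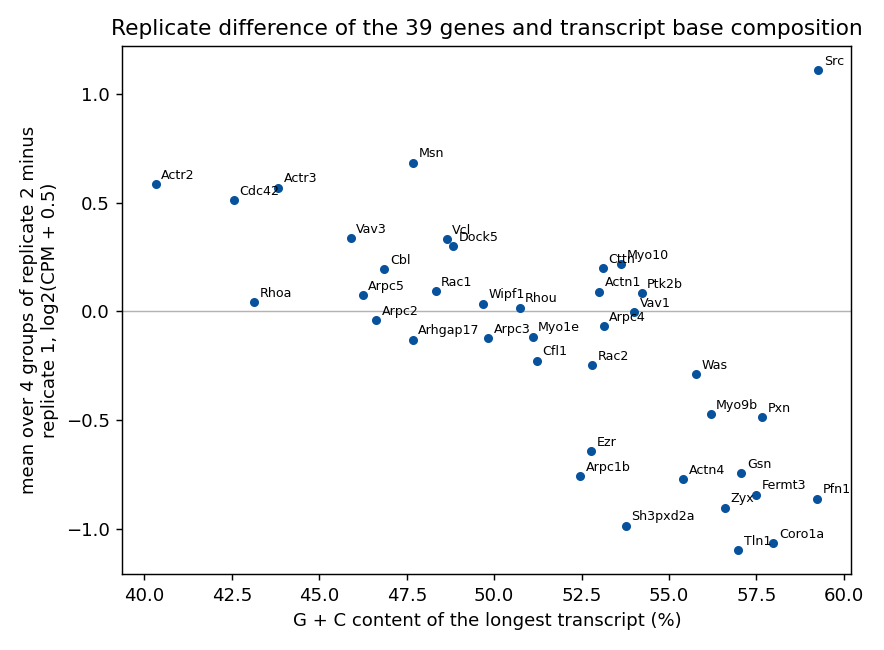
Mean over the 4 groups of the second minus the first replicate, on log2(CPM + 0.5), against the G + C content of the longest transcript in percent, with 1 labelled point for each of the 39 genes. Points fall from Actr2 at the upper left to Coro1a and Tln1 at the lower right, with Src alone at the upper right.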

How the data were processed

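Poly-A RNA libraries (NEBNext Ultra II, per the labels' protocols) were read as deposited. The authors deposited 1 table of CPM values per gene, and the submitters' processing notes name fastp, HISAT2, HTSeq, edgeR and the mm10 build; their versions, settings, annotation and strand option are not given in the sources used here. Reads of overlapping or antisense genes, and of near-identical copies, therefore cannot be told apart. Within a library 100.0% of the CPM values were whole multiples of 1 read within 0.01, so that reads were recovered (9855859 to 35653203 a library). On these reads edgeR's quasi-likelihood test called 1 of the 39 genes in wild type and 6 in the knockout with TNF (0.492% and 4.08% of all genes), and DESeq2 called 5 and 13 (7.17% and 13.9%).

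Values were analysed as log2(CPM + 0.5) with limma 3.58.1 (lmFit, eBayes with trend, 2-sided) in R 4.3.3, group as the only term, on all 8 libraries and the 12194 genes (49.9%) that reached 1 CPM in 2 or more libraries. The model has 4 residual degrees of freedom, 3 with the replicate block. Fold changes on this scale understate the change of low genes. Alternatives used edgeR 4.0.16, DESeq2 1.42.0, other pseudocounts, filters and scalings, the 4 libraries of a comparison alone, and each library left out; in a left-out fit the lone library of a group is assumed to vary like the others.

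The replicate numbers come from the sample titles. Deviations from the group means correlated between same-numbered libraries in all 6 pairs of groups (r 0.58 to 0.80 across 12194 genes, 0.59 to 0.81 across the 39), and the series text speaks of 2 independent experiments, so the block is printed where it changes a call. Replicates of a group differed far beyond sampling noise.

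The members and lists were chosen with earlier results of these data known. Library values are given for each gene called in any comparison by either model, for the most positive and most negative gene of each comparison, and for Src, Ptk2b, Cbl, Pxn, Vav3, Rac1 and Rac2; up to 3 called genes are named per other list. A few others (Gsn, Vav1) were added after their values were seen, as were the scalings with the block and the counts of extreme groups. Gene positions and transcripts are from GENCODE M21 on GRCm38, and promoters from RefSeq on GRCm38.p6. The scripts were tested on simulated data. Some results, among them the counts of 1 of the 7 other gene lists, are not reported here.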

Additional observations from a re-analysis of the deposited data

Results flagged for a closer look

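Rhoa, encoding the GTPase that drives actomyosin contractility, moved in opposite directions with TNF in the 2 genotypes, with no overlap between libraries in either. It had 373 and 394 CPM in untreated wild type and 401 and 403 with TNF, and 351 and 371 in the untreated knockout and 339 and 339 with TNF. The difference was 0.07 in wild type and -0.09 in the knockout on the log2 scale, so that the knockout minus wild-type response was -0.1601. The test of that difference did not call it (limma adjusted p with the block 0.759). Such opposite moves without overlap were seen in 277 genes, 2.27% of all tested, and under each of 3 other scalings the wild-type libraries overlapped.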

How the results depend on the processing

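No value of the 39 genes that was called reversed its direction under any alternative run. The replicate block, the filters and the 4 libraries alone leave these differences unchanged by design, so those runs could not have reversed one. Shares of all genes tested are in parentheses. In wild type with TNF, the 2 calls (1.18%) became 5 with the replicate block (10.3%), 1 with no filter (0.441%), 1 with edgeR (0.492%), 5 with DESeq2 (7.17%) and 0 with the 4 libraries alone (0.23%), and leaving out 1 library at a time gave 0 to 2 (0% to 0.694%). In the knockout, the 7 calls (5.1%) became 17 with the replicate block (25.9%), 13 with DESeq2 (13.9%) and 2 with the 4 libraries alone (0.582%), and 1 to 5 with 1 library left out (0.355% to 4.24%). Between genotypes with TNF, 0 became 10 with the replicate block (9.28%) and 4 with DESeq2 (4.86%), and stayed at 0 in every leave-out (0%). The difference of responses went from 0 to 1 with DESeq2 (0.648%). With the block kept, the 5 wild-type calls became 14 with DESeq2 (20.9%) and 3 to 6 with 1 library left out (2.03% to 11.7%), and the 17 knockout calls became 19 with DESeq2 (33.7%) and 10 to 17 in leave-outs (7.42% to 25.3%). The 10 between genotypes with TNF became 0 to 7 (0% to 9.19%), and the 0 of the difference of responses 7 with DESeq2 (8.09%) and 0 to 2 in leave-outs (0% to 2.67%). The cause of these changes was not tested, and a leave-out changes both the number of libraries and which ones are used. At day 0 no alternative called any of the 39 genes. Median-ratio and TMM scaling moved the median of all genes by 0.12 and 0.11 in wild type with TNF. Of the 195 differences (39 genes in 5 comparisons), 9 to 10 changed sign with the scaling, all with a size of at most 0.11. Src, Rhou and Cttn stood at 2.70 to 17.6 CPM in the day 0 libraries, so their folds on log2(CPM + 0.5) understate the change. How far their read numbers limit the folds was not tested.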

Other observations

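Values of some other adhesion genes, most of them relatives of the 39 and chosen after their values were seen, follow. Fgr, a Src family kinase of myeloid cells, had 3.10 and 8.12 CPM in untreated wild type, 149 and 194 with TNF, 7.22 and 42.4 in the untreated knockout and 83.9 and 94.7 with TNF. Its libraries did not overlap between day 0 and TNF in either genotype, with a difference of 4.94 in wild type (limma adjusted p = 0.0503, with the block 0.00437) and 2.30 in the knockout (with the block 0.0231), beside 5.37 and 5.85 for Src. Fyn was lower with TNF in both, at -1.36 and -1.48 (limma adjusted p with the block 0.00838 and 0.00311).

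Sh3pxd2b, encoding Tks4, the relative of Tks5, had 334 and 419 CPM in untreated wild type, 244 and 298 with TNF, 361 and 510 in the untreated knockout and 228 and 254 with TNF. Its knockout difference was -0.83 (limma adjusted p with the block 0.0121), beside 1.96 for Sh3pxd2a. Among Dock family exchange factors, Dock2 fell by 1.84 and Dock1 by 1.57 in the knockout (limma adjusted p = 0.0156 and 0.015), beside 1.71 for Dock5. Itgb3, encoding the beta-3 integrin chain of osteoclasts and also an osteoclast marker here, had 16.4 and 62.8 CPM in untreated wild type, 19.8 and 60.3 with TNF, 18.9 and 48.0 in the untreated knockout, and 307 and 1662 with TNF. The 2 knockout libraries with TNF stood apart from the other 6 and from each other, and the knockout minus wild-type difference with TNF was 4.35 (limma adjusted p with the block 0.00417).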
